A study of Mus musculus with 6 samples.

Results

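Metallothioneins Mt1 and Mt2 and a set of genes known to respond to glucocorticoids were examined in newborn mouse calvaria after deletion of Stat3 in osteoblast precursors. The genes were found by exact match of the gene symbol in the count table and numbered 10 of the 44556 genes listed. Mt1 and Mt2 were selected on their counts in this comparison, which were higher in the OsxCre;Stat3fl/fl libraries, so their difference between genotypes is given as a description without a test. The other 8, namely Fkbp5, Tsc22d3, Per1, Sgk1, Zbtb16, Klf9, Ddit4 and Cdkn1a, were listed for their known glucocorticoid response, to ask whether such a response accompanied the metallothioneins. They were listed with earlier results of these data known. A total of 9 genes passed the filter on low counts, and Sgk1 did not.

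RNA-seq libraries were made from the parietal bone of C57BL/6 newborns, with 3 OsxCre and 3 OsxCre;Stat3fl/fl libraries from littermates. Both genotypes carried the Osx-Cre transgene, in which Cre recombinase is driven by the Osterix promoter and is mainly active in osteoblast precursors. In OsxCre;Stat3fl/fl mice both Stat3 alleles were flanked by loxP sites, so cells of the calvaria that do not express Osx-Cre kept an intact Stat3. The study's methods give 3 mice per genotype, and the p-values measure the spread between these 3 libraries per genotype. In bulk tissue, fewer cells of a type and less RNA per cell cannot be told apart. The libraries held between 8193651 and 12080044 counts.

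Metallothioneins are small cysteine-rich proteins that bind zinc and copper and buffer the free metal in the cell. Their genes are switched on by metals through the zinc-sensing factor MTF1, which binds metal response elements near the start site, and also by oxidative stress, by cytokines of the IL-6 type that signal through STAT3, and by glucocorticoids. Glucocorticoids act through the glucocorticoid receptor, which binds DNA as a dimer at palindromic sites and raises a shared set of targets in many tissues, Fkbp5, Tsc22d3, Per1, Zbtb16 and Klf9 among them. In bone, glucocorticoid excess is known to lower osteoblast number and function.

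The start-site sequences of the metallothioneins are shown because they carry the metal response elements through which these genes are best known to be induced. RefSeq start-site windows on GRCm38.p6, from 250 bases before to 50 bases after each annotated start, were available for 9 of the 10 genes, in 18 windows. Each sequence below runs 5′ to 3′ on the plus strand and ends 30 bases after the start, with the core of each metal response element in capitals (TGCACNC or TGCGCNC, on either strand). Mt1 lies at chr8:94178839-94179118 and Mt2 at chr8:94172368-94172647.
Mt1: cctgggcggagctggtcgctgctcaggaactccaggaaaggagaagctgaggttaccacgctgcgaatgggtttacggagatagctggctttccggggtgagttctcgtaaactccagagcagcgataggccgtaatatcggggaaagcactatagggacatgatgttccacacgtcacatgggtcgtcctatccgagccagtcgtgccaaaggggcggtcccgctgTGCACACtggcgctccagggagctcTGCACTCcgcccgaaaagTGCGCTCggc
Mt2: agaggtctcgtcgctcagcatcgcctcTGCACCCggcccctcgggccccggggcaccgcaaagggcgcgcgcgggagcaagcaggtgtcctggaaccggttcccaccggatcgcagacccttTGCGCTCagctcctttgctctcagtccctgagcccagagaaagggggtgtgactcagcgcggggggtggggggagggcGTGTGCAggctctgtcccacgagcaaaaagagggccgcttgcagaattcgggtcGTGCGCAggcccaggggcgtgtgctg

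The Mt1 window held 3 of these cores and the Mt2 window 4, whereas 25.7% of the 32851 mouse start-site windows held at least 1 and 7.11% held at least 2. Among the other genes with a window, Per1, Sgk1 and Ddit4 had 1 core each in 1 of their windows. The Mt2 window also held an antioxidant response element core (TGACNNNGC, found in 12.4% of all windows), which the Mt1 window did not, and which Per1 and Cdkn1a had as well. Positions are counted from the annotated RefSeq start used for each window. Another start would shift them and change which cores are counted. The RefSeq span of Mt1 begins at chr8:94178883, upstream of the start used for its window.

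The full palindromic glucocorticoid receptor site was searched as a contrast, and only 3 of the 32851 windows, or 0.00913%, held it. One of these was a start of Sgk1, which encodes a kinase that regulates sodium transport and is a textbook glucocorticoid target. The site is shown in capitals within its flanks, at chr10:21993688-21993728 on the plus strand.
Sgk1: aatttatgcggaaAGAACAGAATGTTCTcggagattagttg

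A single AGAACA element, the motif bound by 1 receptor molecule, was present in 19% of all windows and, among these genes, in windows of Sgk1 and Tsc22d3. The STAT motif TTCNNNGAA was present in 8.3% of all windows and matched a window of Tsc22d3, Per1, Sgk1 and Klf9, but neither metallothionein window. The circadian E-box CACGTG, found in 7.15% of all windows, matched a window of Fkbp5, Per1 and Sgk1. A match is a description of the letters and not evidence of binding, and the windows do not cover distal enhancers.

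The targeted gene was read before the comparison. Stat3 had 150, 135 and 141 CPM (the count relative to the library size, after TMM scaling for library composition) in OsxCre libraries 1 to 3 and 153, 155 and 155 CPM in the libraries labelled OsxCre;Stat3fl/fl. The log2 fold change was 0.12 ± 0.07 (SE, n = 3 per genotype) with an adjusted p of 0.442 by edgeR's quasi-likelihood test. A count over the whole gene includes exons outside the floxed segment and cells without Cre, so it does not check the deletion, and the directions below rest on the labels.

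Mt1 and Mt2 were higher in all OsxCre;Stat3fl/fl libraries than in any OsxCre library, which is what they were chosen for. Mt1 had 678, 438 and 652 counts in the OsxCre libraries, or 64.5, 43.4 and 54.7 CPM. In the OsxCre;Stat3fl/fl libraries it had 1237, 1288 and 1435 counts, or 149, 158 and 168 CPM. The groups were far apart, with a mean of 54.2 ± 10.6 CPM against 158 ± 9.64 CPM (SD, n = 3 each) and a log2 fold change of 1.54 ± 0.14 (SE), a 2.91-fold difference.

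Mt2, which lies next to Mt1 on chromosome 8, had the larger fold of the pair. It had 390, 218 and 329 counts in OsxCre libraries, or 37.1, 21.6 and 27.6 CPM, and 852, 852 and 1028 counts in OsxCre;Stat3fl/fl libraries, or 102, 104 and 120 CPM. The mean was 28.8 ± 7.82 CPM against 109 ± 9.78 CPM (SD, n = 3 each), and the log2 fold change was 1.92 ± 0.18 (SE), a 3.79-fold difference. The ratio of Mt1 to Mt2 counts was 1.74, 2.01 and 1.98 in OsxCre libraries and 1.45, 1.51 and 1.4 in OsxCre;Stat3fl/fl libraries, so Mt2 made up a larger part of the metallothionein counts in every OsxCre;Stat3fl/fl library.

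Within a genotype the pair kept the same order of libraries. OsxCre library 1 was highest and library 2 lowest for both genes, with a 1.49-fold range for Mt1 and a 1.72-fold range for Mt2. OsxCre;Stat3fl/fl library 3 was highest and library 1 lowest for both, over a range of 1.13-fold and 1.17-fold. No sequence elsewhere in the NCBIM37 genome matched the transcripts of Mt1 or Mt2 at 95% identity or more over at least 100 bp, and the closest match of Mt2 outside the cluster had 88.3% identity.

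The other metallothioneins gave no call. Mt3, the form best known from brain, had between 10.5 and 12.9 CPM in OsxCre libraries and between 10.1 and 16.9 CPM in OsxCre;Stat3fl/fl libraries, and its groups overlapped (log2 fold change 0.17 ± 0.22, adjusted p = 0.757 by edgeR). Mt4, known from squamous epithelium, had at most 2 counts in any library and was not tested. Among the 8 genes flanking the cluster on chromosome 8, 6 were tested and none passed in either direction by edgeR, limma-voom or DESeq2, or at an unadjusted p under 0.05, with a median log2 fold change of 0.08. Gnao1, a G protein subunit of neurons, had a log2 fold change of 0.37 ± 0.55, and Nudt21, a pre-mRNA cleavage factor, 0.19 ± 0.15. The groups overlapped for both.

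**Figure D1:**
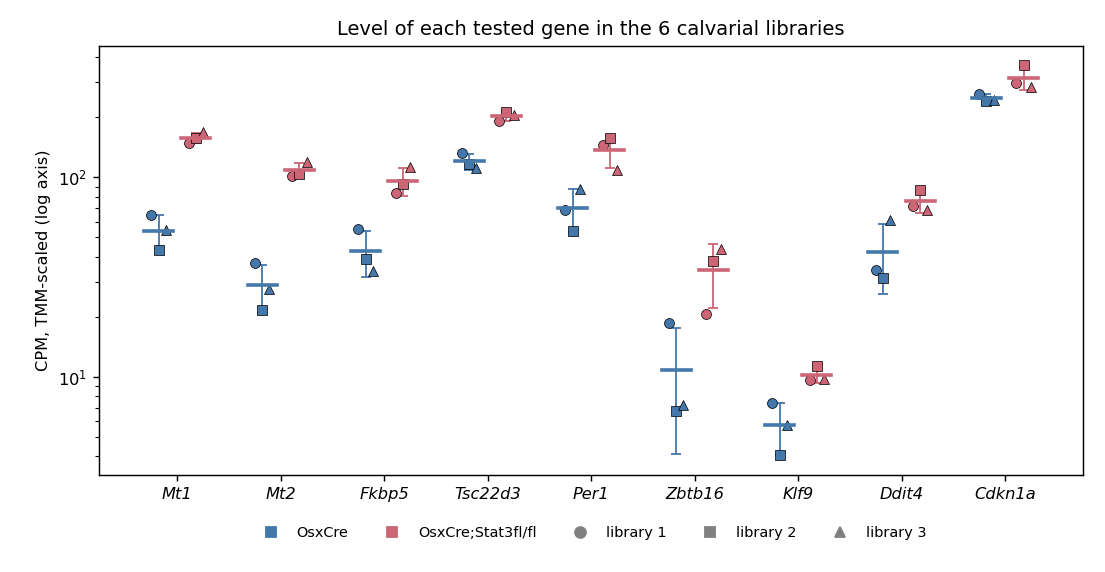
CPM of the 9 tested genes on a log axis, with OsxCre in blue, OsxCre;Stat3fl/fl in red, symbols for libraries 1 to 3, horizontal bars for means and error bars for SD (n = 3). The groups do not overlap for any of the 9 genes. Mt1 and Mt2, at means of 54.2 against 158 CPM and 28.8 against 109 CPM, were chosen for their difference.

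Of the 7 glucocorticoid-responsive genes that could be tested, Fkbp5 and Tsc22d3 rose in OsxCre;Stat3fl/fl libraries at an adjusted p under 0.05. The other 5, Per1, Zbtb16, Klf9, Ddit4 and Cdkn1a, had positive log2 fold changes between 0.34 and 1.65 that did not pass. Over all 15600 genes tested, 0.776% were called higher (121 genes) and 0.481% were called lower (75 genes). All 7 had every OsxCre;Stat3fl/fl library above every OsxCre library, against 10.8% of all genes tested in that direction and 12.2% in the other. Their median log2 fold change was 0.84, beside 0.00 over all genes, and all 7 had an unadjusted p under 0.05, beside 8.03% of all genes higher and 8.34% lower at that threshold. DESeq2 called 4 of the 7 higher, where over all genes it called 2.01% higher and 1.51% lower, and limma-voom called 0.756% higher and 0.397% lower. These counts depend on which genes were listed, and the list was made with earlier results of these data known. They are a description and not an independent check, and no test was made over the list.

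Fkbp5 encodes a co-chaperone that lowers the affinity of the glucocorticoid receptor for its hormone, and is itself induced by the receptor as a feedback. It had 55.2, 39 and 33.9 CPM in OsxCre libraries and 83.2, 92.2 and 113 CPM in OsxCre;Stat3fl/fl libraries. The groups were apart, with a log2 fold change of 1.17 ± 0.19 (SE) and an adjusted p of 0.0362 by edgeR, a 2.25-fold difference. Its call was kept without OsxCre library 1 and was lost when any other single library was left out, with adjusted p-values between 0.0363 and 0.157 by edgeR over the 6 omissions.

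Tsc22d3, also called GILZ, encodes a leucine zipper protein that carries part of the anti-inflammatory action of glucocorticoids. Its level was 133, 117 and 111 CPM in OsxCre libraries and 192, 214 and 205 CPM in OsxCre;Stat3fl/fl libraries. The libraries of each genotype lay close together, with means of 120 ± 11.2 and 204 ± 10.9 CPM (SD, n = 3 each). The log2 fold change was 0.76 ± 0.09 (SE) with an adjusted p of 0.0142 by edgeR. The call was lost without OsxCre library 2 (adjusted p = 0.0534 by edgeR) and without OsxCre;Stat3fl/fl library 3 (adjusted p = 0.0912 by edgeR).

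Per1, a repressor of the circadian clock that glucocorticoids also induce acutely, stood just short of the threshold. Its levels were 68.4, 54 and 87.8 CPM in OsxCre and 146, 158 and 109 CPM in OsxCre;Stat3fl/fl libraries, with a log2 fold change of 0.97 ± 0.20 (SE) and an adjusted p of 0.0657 by edgeR. OsxCre library 3 and OsxCre;Stat3fl/fl library 3 were the closest pair across the gap. Without OsxCre library 3 the adjusted p was 0.0483 by edgeR.

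Zbtb16, a zinc finger repressor also called PLZF, had the largest log2 fold change of the 7 and the widest spread. It had 18.7, 6.74 and 7.22 CPM in OsxCre libraries and 20.7, 38.2 and 43.7 CPM in OsxCre;Stat3fl/fl libraries. OsxCre library 1 nearly reached OsxCre;Stat3fl/fl library 1, and the log2 fold change of 1.65 ± 0.43 (SE) had an adjusted p of 0.121 by edgeR. The range within a genotype was 2.78-fold in OsxCre and 2.12-fold in OsxCre;Stat3fl/fl libraries.

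Klf9, a Krüppel-like factor induced by glucocorticoids and thyroid hormone, was the least abundant of the tested genes. It had 7.42, 4.06 and 5.71 CPM in OsxCre and 9.61, 11.4 and 9.82 CPM in OsxCre;Stat3fl/fl libraries, from between 41 and 93 counts. The log2 fold change was 0.84 ± 0.23 (SE) with an adjusted p of 0.139 by edgeR.

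Ddit4, also called REDD1, encodes an inhibitor of mTORC1 that responds to glucocorticoids, hypoxia and energy stress. Its levels were 34.5, 31.3 and 60.9 CPM in OsxCre and 71.8, 87 and 68.6 CPM in OsxCre;Stat3fl/fl libraries, so OsxCre library 3 stood close to the other group. The log2 fold change was 0.84 ± 0.24 (SE) with an adjusted p of 0.146 by edgeR. Without OsxCre library 3 it rose to 1.20 with an adjusted p of 0.0194 by edgeR.

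Cdkn1a encodes the cell cycle inhibitor p21, a p53 target that glucocorticoids can also raise. It had 263, 242 and 244 CPM in OsxCre and 298, 365 and 285 CPM in OsxCre;Stat3fl/fl libraries. The log2 fold change of 0.34 ± 0.11 (SE) was the smallest of the set, with an adjusted p of 0.178 by edgeR, and it turned to -0.04 when raw counts were used with no library size taken into account. The median of all genes was -0.38 under that setting.

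Sgk1 had 2, 2 and 0 counts in OsxCre libraries and 3, 0 and 0 counts in OsxCre;Stat3fl/fl libraries, at or under a floor of 3 counts per library, or between 0.248 and 0.366 CPM by library total. No fold is given. Nup93, a subunit of the nuclear pore that every cell needs and which was picked after its values were seen, also had at most 7 counts in any library. A count near 0 in this table was therefore not read as low expression of Sgk1.

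For each of the 7 tested genes an exact permutation test of the CPM values, two-sided, gave p = 0.1, the smallest that 3 against 3 libraries can give. The other settings reuse the same 6 libraries or leave 1 of them out. The groups were already apart for all 9 tested genes, and Mt1 and Mt2 were chosen for their direction. A kept sign is therefore a description and adds no independent evidence. In 15 alternative settings the log2 fold change stayed positive in all 15 for every tested gene except Cdkn1a, which was positive in 14. Tsc22d3 was called in 12 of the 15, Fkbp5 in 9, Per1 in 4, Ddit4 in 3, Zbtb16 in 2, and Klf9 and Cdkn1a in none.

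**Figure D2:**
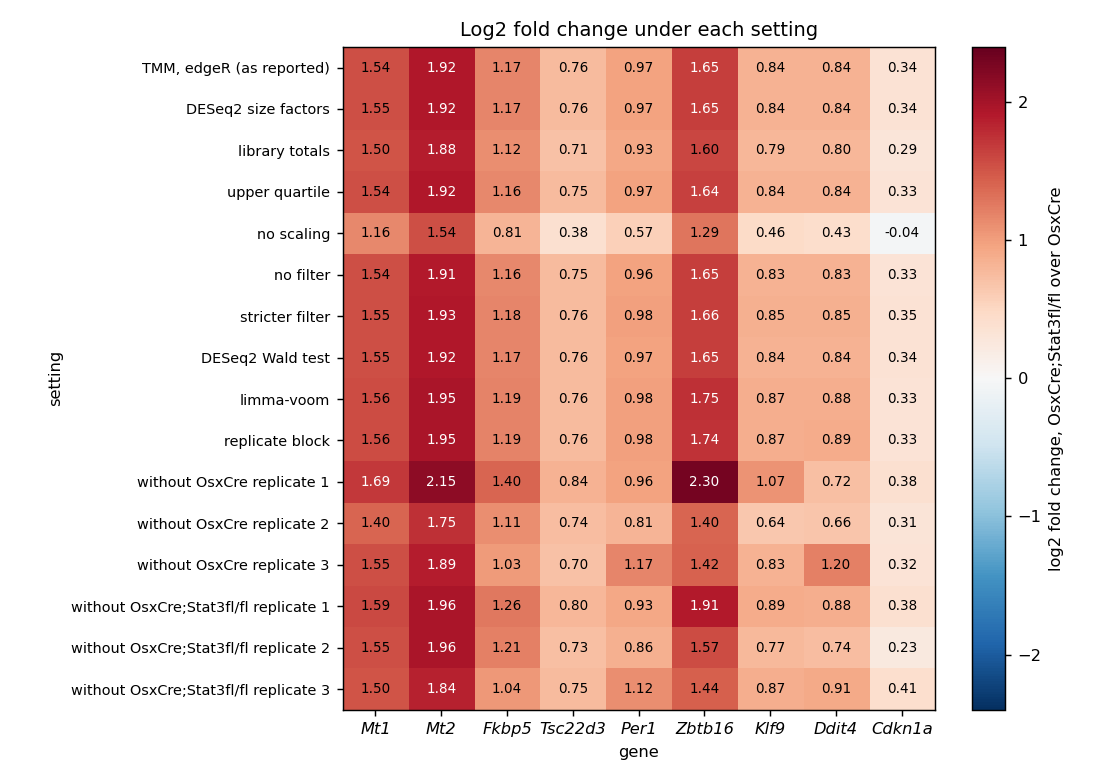
Log2 fold change (OsxCre;Stat3fl/fl over OsxCre) of the 9 tested genes, in columns, under the reported fit in the top row and 15 alternatives below it, with red for higher and blue for lower. All values are positive but for Cdkn1a without scaling (-0.04). Zbtb16 ranged most, from 1.29 to 2.30, while Mt1 ranged from 1.16 to 1.69 and Mt2 from 1.54 to 2.15. Mt1 and Mt2 were chosen for their difference, and all settings draw on the same libraries.

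Levels can be compared between genes only per length of transcript. As CPM per kb of annotated exon (GENCODE), the order of mean levels in OsxCre libraries was Cdkn1a (112), Mt1 (72.0), Mt2 (51.7), Tsc22d3 (27.7), Ddit4 (25.1), Per1 (12.4), Fkbp5 (6.76), Zbtb16 (2.13) and Klf9 (1.76). The ranges of Mt1 and Mt2, of Tsc22d3 and Ddit4 and of Zbtb16 and Klf9 overlapped, and other neighbours in that order did not. The length was that of all annotated exons of a gene merged, 753 bp for Mt1, whose transcripts are 540 and 631 bp. Over a single transcript the Mt1 level would be higher, so whether its range overlapped that of Cdkn1a depends on the length used. In OsxCre;Stat3fl/fl libraries Mt1 (210) and Mt2 (195) stood above Cdkn1a (142), and the order of the remaining genes was kept. There the ranges of Mt1 and Mt2 and of Tsc22d3 and Ddit4 overlapped.

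Within a genotype, no single order of the libraries held for all of the set. OsxCre library 1 was the highest of its group for 7 of the 9 tested genes, namely Mt1, Mt2, Fkbp5, Tsc22d3, Zbtb16, Klf9 and Cdkn1a. OsxCre library 3 was the highest for Per1 and Ddit4. Among OsxCre;Stat3fl/fl libraries, library 3 was the highest for Mt1, Mt2, Fkbp5 and Zbtb16 and library 2 for the other 5. With 3 libraries this order is a description only.

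Beyond the listed genes, 34 further genes known to be induced by glucocorticoids were read, of which 33 were tested. Of these, 6 rose and none fell at an adjusted p under 0.05, which is 18.2% beside the 0.776% called higher over all genes. At an unadjusted p under 0.05, 17 were higher and none lower, beside 8.03% and 8.34% of all genes, and the median log2 fold change was 0.27 against 0.00 for all genes. DESeq2 called 12 of them higher and limma-voom 6. The list was written with earlier results of these data known, and the counts are a description.

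Among the genes of that list that rose, Hif3a, a hypoxia-inducible factor subunit, had 30.9, 22.8 and 13.2 CPM in OsxCre and 68.6, 78.2 and 65.4 CPM in OsxCre;Stat3fl/fl libraries (log2 fold change 1.67 ± 0.26, adjusted p = 0.0313 by edgeR). Cebpd, a C/EBP transcription factor of acute responses, had 25, 19.2 and 22.5 CPM and 47.1, 60.1 and 46.3 CPM (1.20 ± 0.14, adjusted p = 0.0142 by edgeR). Errfi1, a feedback inhibitor of the EGF receptor, rose by 0.73 ± 0.09, and Zfp36, which destabilises inflammatory mRNAs, by 0.79 ± 0.13. Foxo3, a forkhead factor of catabolic states, rose by 0.63 ± 0.10. The remaining gene, Nfkbia, encodes an inhibitor of NF-κB, had a log2 fold change of 0.48 ± 0.08, and lay outside the naming rule.

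Each of these groups of 3 libraries was apart. The calls of Hif3a, Foxo3 and Zfp36 were kept in only 2, 1 and 1 of the 6 omissions of a single library, that of Errfi1 in 4, and that of Cebpd in 5. Some other textbook targets of the receptor, picked after their values were seen, had log2 fold changes smaller than their SE. Pdk4, a kinase that limits glucose oxidation, was at -0.05 ± 0.42 and Angptl4, a lipoprotein lipase inhibitor, at 0.02 ± 0.17. Per2 was at -0.16 ± 0.21, and the groups overlapped for these 3 genes. Of the 33 tested genes of the list, 18 had groups apart and higher and none apart and lower, beside 10.8% and 12.2% of all genes.

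The receptor itself and the enzymes that set local hormone levels were also read, in a list of 15 genes with their chaperones. Nr3c1, the glucocorticoid receptor, had 110, 99.9 and 117 CPM in OsxCre and 87.4, 111 and 94.8 CPM in OsxCre;Stat3fl/fl libraries, which overlapped (log2 fold change -0.15 ± 0.11, adjusted p = 0.518 by edgeR). Nr3c2, the mineralocorticoid receptor, was apart and below at -0.51 ± 0.15, with an adjusted p of 0.16 by edgeR. Hsd11b1, which regenerates active corticosterone in the cell, had 3.52, 2.68 and 4.11 CPM and 6.24, 8.58 and 9.47 CPM. Its groups were apart with a log2 fold change of 1.23 ± 0.25, and its adjusted p of 0.066 by edgeR did not pass, although DESeq2 called it higher.

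Hsd11b2, the opposing enzyme that inactivates the hormone, had a log2 fold change of 0.01 ± 0.23 with overlapping groups. The only call by edgeR in this list of 15 was Ptges3, the p23 co-chaperone of HSP90 that holds the receptor ready for hormone, which fell by 0.57 on the log2 scale (SE 0.10, adjusted p = 0.0445 by edgeR). That call was lost on omission of any single library, and over all genes 0.481% were called lower. At an unadjusted p under 0.05 by edgeR, 1 gene of the list, Hsd11b1, was higher and 4 were lower, beside 8.03% and 8.34% of all genes. The lower ones were Ptges3, Nr3c2 and the chaperones Fkbp4 (-0.24 ± 0.09) and Stip1 (-0.25 ± 0.07), each with groups apart.

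Genes known to rise in muscle under glucocorticoids were read because calvarial samples can carry muscle. Of 13 tested, 3 rose and none fell by edgeR, or 23.1% beside 0.776% of all genes called higher. At an unadjusted p under 0.05 by edgeR, 9 were higher and none lower, beside 8.03% and 8.34% of all genes. The 3 called were Ctsl and the same Cebpd and Foxo3 as in the list of other glucocorticoid-induced genes. Foxo1, Klf15 and Pik3r1, also higher at the unadjusted threshold, were in that list too, so the counts of these lists are not separate. Ctsl, a lysosomal protease, had a log2 fold change of 0.58 ± 0.09. The call of Ctsl was lost on omission of any single library (adjusted p between 0.0558 and 0.139 by edgeR). DESeq2 called 5 of the list higher, adding Gabarapl1 and Trim63, where over all genes it called 2.01% higher. The median was 0.41. The summed level of 13 skeletal muscle markers was between 35280 and 39431 CPM in OsxCre and between 41640 and 61251 CPM in OsxCre;Stat3fl/fl libraries, without overlap. Of the muscle markers 11 of 13 had a positive log2 fold change. Myh3, an embryonic myosin, rose by 1.71 ± 0.23, and Myh4, a fast myosin, fell by 3.61. The part of muscle in the differences of Fkbp5, Tsc22d3, Zbtb16, Ddit4, Klf9 and the metallothioneins was not tested.

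Bone genes known to move with glucocorticoids, 12 of them beside Fkbp5 and Tsc22d3, gave 1 call by edgeR and limma-voom. By edgeR this was 8.33%, beside 0.776% of all genes called higher. Sfrp1, a secreted Wnt antagonist, had 73.5, 76.1 and 90.4 CPM in OsxCre and 121, 131 and 151 CPM in OsxCre;Stat3fl/fl libraries (log2 fold change 0.75 ± 0.11, adjusted p = 0.0279 by edgeR). That call was kept in 1 of the 6 omissions of a library. DESeq2 called Sfrp1 and Lcn2, an iron-siderophore-binding lipocalin, higher, where over all genes it called 2.01% higher. At an unadjusted p under 0.05 by edgeR, 2 of the 12 were higher and 2 lower, beside 8.03% and 8.34% of all genes. The median of the 12 was 0.02. The lower ones, picked after their values were seen, were Wnt antagonists, Sost from osteocytes with a log2 fold change of -1.03 ± 0.31 and groups apart, and Dkk1 with -0.95 ± 0.37 and groups that overlapped.

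The metal-handling genes gave no call. Of 7 tested genes for MTF1 and its known targets, none passed in either direction by edgeR, limma-voom or DESeq2, or at an unadjusted p under 0.05. Mtf1, the zinc-sensing factor, had 17.2, 15.4 and 16.5 CPM in OsxCre and 15, 16.1 and 18.2 CPM in OsxCre;Stat3fl/fl libraries. Slc30a1, the zinc exporter that MTF1 induces along with the metallothioneins, had 17.2, 15.6 and 21.9 CPM and 13.9, 16.7 and 25 CPM. Their log2 fold changes, 0.01 ± 0.12 and 0.02 ± 0.23, turned negative with library totals or without scaling.

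The zinc transporters gave no call by any of these tools in 8 tested exporters or 11 tested importers, none at an unadjusted p under 0.05, at medians of -0.01 and -0.03. Slc39a14, an importer induced by IL-6 in liver, had a log2 fold change of -0.10 ± 0.08. The largest differences in size were Slc30a6 at -0.31 ± 0.20, Slc30a10 at 0.22 ± 0.29, Slc39a2 at -0.78 ± 0.52 and Slc39a6 at 0.21 ± 0.12, all with overlapping groups. The 12 copper-handling genes gave no call by these tools either, and their median was 0.09. At an unadjusted p under 0.05 by edgeR, 1 was lower, beside 8.34% of all genes. Steap3, a metalloreductase, was at -0.47 ± 0.12 with groups apart, and Steap4, its relative, at 0.31 ± 0.14 with groups that overlapped.

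Of 15 genes of the NRF2 oxidative stress response, 1 rose by edgeR, or 6.67% beside 0.776% of all genes called higher. At an unadjusted p under 0.05 by edgeR, 1 was higher and 1 lower, beside 8.03% and 8.34% of all genes. Hmox1, the heme-degrading enzyme heme oxygenase 1, had 77.6, 56.9 and 71.2 CPM in OsxCre and 172, 201 and 240 CPM in OsxCre;Stat3fl/fl libraries. Its log2 fold change was 1.58 ± 0.15 (SE) with an adjusted p of 0.00785 by edgeR. The call was kept in 5 of the 6 omissions and lost without OsxCre;Stat3fl/fl library 3 (adjusted p = 0.052 by edgeR). The list had a median of 0.13. The summed level of 5 macrophage markers was 295 to 314 CPM in OsxCre and 363 to 382 CPM in OsxCre;Stat3fl/fl libraries, and of these C1qb rose, by 0.50 ± 0.07. The part of macrophages in the difference of Hmox1 was not tested.

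**Figure D3:**
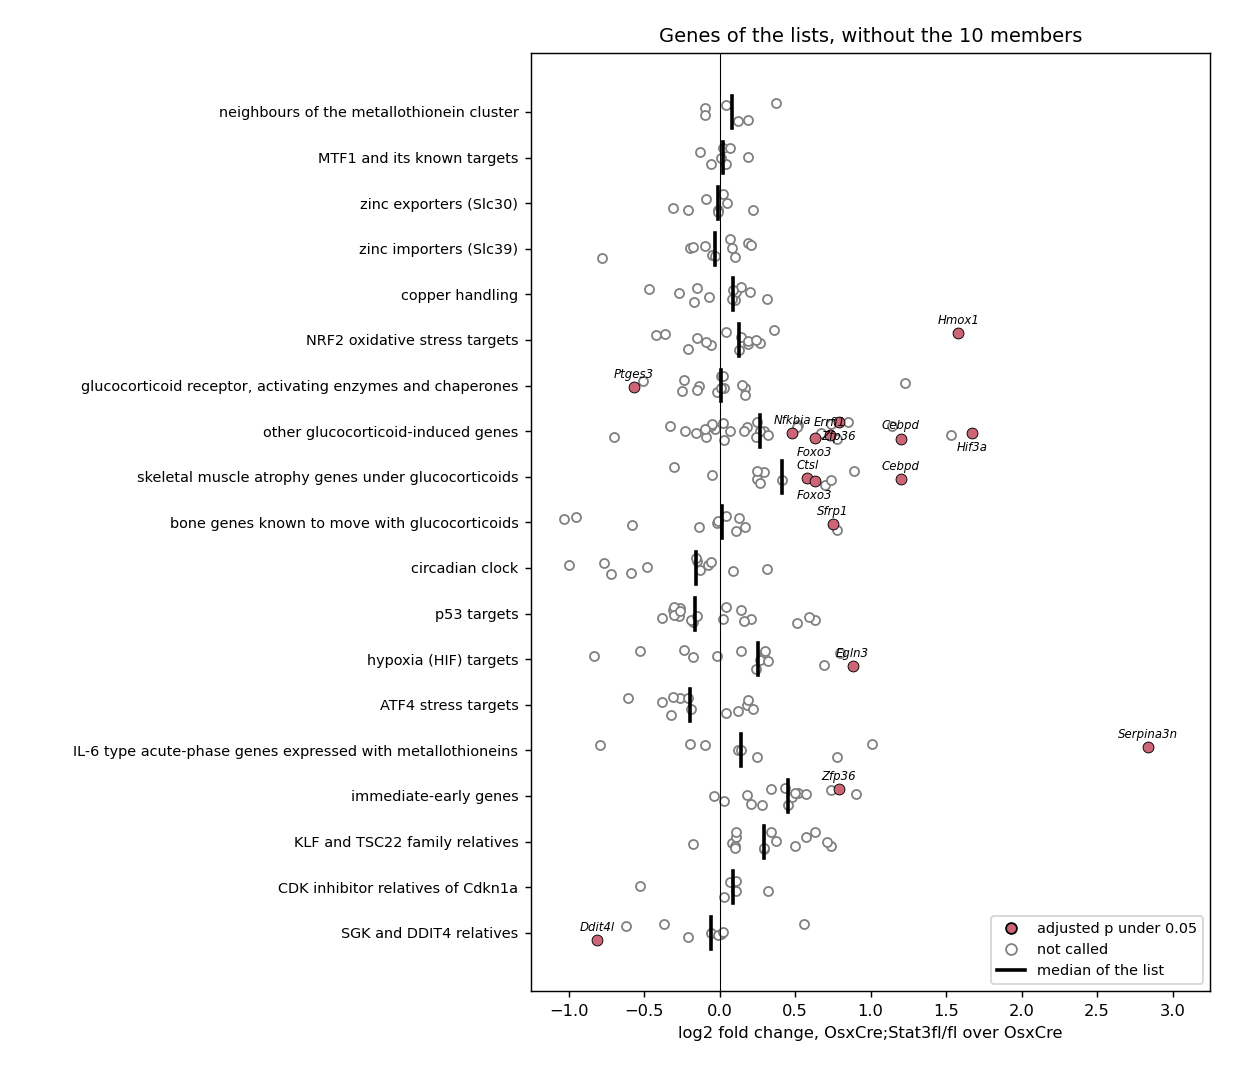
Log2 fold change (OsxCre;Stat3fl/fl over OsxCre, horizontal axis) of the tested genes of 19 lists, with the 10 listed genes left out. Filled red points are genes called by edgeR at an adjusted p under 0.05, open points are not called, and black bars are list medians. Of the other glucocorticoid-induced genes 24 of 33 lie to the right of 0 (median 0.27, 6 called higher), those of the metal lists lie around 0, and Serpina3n stands farthest right at 2.84.

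Lists for the other known inducers of these genes were read next. Acute-phase genes of the IL-6 type are often induced with metallothioneins and mostly through STAT3. Of 9 tested, 1 rose and none fell by edgeR, or 11.1% beside 0.776% of all genes called higher. DESeq2 also called Lcn2 higher. At an unadjusted p under 0.05 by edgeR, 2 were higher and 1 lower, beside 8.03% and 8.34% of all genes. Serpina3n, a secreted serine protease inhibitor, had 2.76, 3.77 and 2.85 CPM in OsxCre and 27, 16.7 and 23.7 CPM in OsxCre;Stat3fl/fl libraries (log2 fold change 2.84 ± 0.23, adjusted p = 0.00363 by edgeR). It was called in all 6 omissions of a library. The median of the 9 was 0.14. Of the 9, 4 had groups apart and higher and 1 apart and lower, beside 10.8% and 12.2% of all genes. Besides Serpina3n, the higher ones were Lcn2 (0.78 ± 0.23), Orm1 (1.01 ± 0.44) and Socs3 (0.25 ± 0.11), none called by edgeR. Hp, or haptoglobin, picked after its values were seen, lay in the other direction with groups apart, at -0.79 ± 0.28 and an adjusted p of 0.222 by edgeR.

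Hypoxia targets gave 1 call by edgeR among 14, or 7.14% beside 0.776% of all genes called higher, with a list median of 0.26. It was Egln3, an oxygen-sensing prolyl hydroxylase, at 0.88 ± 0.11. At an unadjusted p under 0.05 by edgeR, 5 of the 14 were higher and 1 was lower, beside 8.03% and 8.34% of all genes. The 15 immediate-early genes gave 1 call by edgeR and limma-voom, the same Zfp36, and 5 by DESeq2, which added Egr1, Fos, Klf2 and Klf6. At an unadjusted p under 0.05 by edgeR, 8 of them were higher and none lower, beside 8.03% and 8.34% of all genes, with a median of 0.45. Neither p53 targets (18 tested, median -0.17) nor ATF4 stress targets (12 tested, median -0.20), which could go with Cdkn1a and Ddit4, gave a call by edgeR or limma-voom. At an unadjusted p under 0.05 by edgeR, 3 p53 targets were higher and 5 lower, and 3 ATF4 targets were lower, while DESeq2 called 1 p53 target, Sesn1, higher. In these lists Fas, a death receptor, had a log2 fold change of 0.63 ± 0.19, Perp, a desmosomal protein, 0.59 ± 0.14, Chac1, a glutathione-degrading enzyme, -0.61 ± 0.26 and Sesn2, a stress-induced mTORC1 inhibitor, -0.38 ± 0.26.

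The relatives of the glucocorticoid-responsive genes were read in the same way. Of 12 tested clock genes other than Per1, none passed by edgeR or limma-voom, and their median was -0.16. At an unadjusted p under 0.05 by edgeR, 1 was higher and 3 were lower, beside 8.03% and 8.34% of all genes. DESeq2 called Dbp and Nr1d2, a clock repressor, lower, where over all genes it called 1.51% lower. Dbp, a clock output factor, lay opposite to Per1, at 27.6, 18 and 35 CPM in OsxCre and 13.6, 13 and 13.9 CPM in OsxCre;Stat3fl/fl libraries (log2 fold change -1.0 ± 0.23, adjusted p = 0.0861 by edgeR). Bhlhe41, a clock repressor, was at -0.77 ± 0.21 with groups apart. The hour of collection was not given in the sources used here.

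Among 15 KLF and TSC22 family genes other than Klf9 and Tsc22d3, none passed the adjusted test by edgeR or limma-voom and Klf2 and Klf6 rose by DESeq2, 7 were higher and none lower at an unadjusted p under 0.05 (8.03% and 8.34% of all genes), and the median was 0.29. Klf15, a glucocorticoid-induced factor of metabolism, had a log2 fold change of 0.74 ± 0.21, and Klf3, a repressor, 0.71 ± 0.27. Of the 7 higher, Klf2, Klf4 and Klf6 were also counted among the immediate-early genes, and Klf15 among the other glucocorticoid-induced genes. The 6 tested relatives of Cdkn1a among the CDK inhibitors gave no call by edgeR, limma-voom or DESeq2, and none at an unadjusted p under 0.05. Cdkn2b, or p15, had a log2 fold change of -0.53 ± 0.29 and Cdkn3, a CDK-directed phosphatase, 0.32 ± 0.21. Among 9 tested relatives of Sgk1 and Ddit4, Ddit4l, the paralogue of Ddit4 that also restrains mTORC1, fell by 0.81 on the log2 scale (SE 0.10, adjusted p = 0.0142 by edgeR), at 72.8, 65.4 and 68.3 CPM against 39.1, 43.3 and 35.2 CPM. This was opposite in sign to Ddit4, and it was called in 3 of the 6 omissions.

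The genes whose levels ran most like the metallothioneins were sought among all genes tested, by Pearson's r of log2 CPM over the 6 libraries. Mt1 and Mt2 had r = 0.999 with each other. The 5 genes most like Mt1 had r between 0.993 and 0.994 and were Egln3, Sult1a1, a phenol sulfotransferase, Aspm, a mitotic spindle protein, Ercc1, a DNA repair nuclease subunit, and Gbp2, an interferon-induced GTPase. The 5 most like Mt2 had r between 0.993 and 0.998 and were Aspm, Gbp2, Sult1a1, Abcg1, a cholesterol transporter, and Egln3. Of the other listed genes, Tsc22d3 was closest to Mt1 (r = 0.979), then Fkbp5 (0.957), Klf9 (0.943), Zbtb16 (0.911), Per1 (0.892), Cdkn1a (0.827) and Ddit4 (0.822). The libraries form separate groups by genotype in all these genes, and r reflects that gap and the shared depth of each library, so it is given with no p.

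Other cell types were read from 14 marker lists. The osteoblast list was well represented at 14328 to 19312 CPM in OsxCre and 13312 to 16942 CPM in OsxCre;Stat3fl/fl libraries, in overlapping ranges. Most of that sum was Col1a1, at 10892 to 15152 CPM and 9902 to 12909 CPM, so the overlap is mainly that of Col1a1. Of the 9 genes, 2 had a positive log2 fold change and 1, Ibsp, was called lower at -0.66 ± 0.09. Alpl was also lower with groups apart, at -0.54 ± 0.10 (adjusted p = 0.0578 by edgeR). Besides muscle and macrophages, the summed level of neutrophil markers did not overlap, at 279 to 479 CPM against 120 to 201 CPM, and S100a9 was the 1 of 7 tested that fell, by 1.25 on the log2 scale. The erythroid sum was 2966 to 4112 CPM against 1520 to 2762 CPM with no call among 5 tested and Hbb-b1 at 0 in all libraries. The sums of neuron and glia markers (139 to 429 CPM against 62 to 353 CPM) and of the liver list (501 to 1181 CPM against 197 to 2657 CPM) varied within each genotype. Ttr, a transthyretin gene also made in choroid plexus, ranged from 18 to 21624 counts. It made up most of the liver sum except in OsxCre library 3 and OsxCre;Stat3fl/fl library 2. There Pck1 made up most of it, at 491 of 501 CPM and 193 of 197 CPM. The adipocyte sum, at 530 to 1946 CPM against 824 to 1782 CPM, also varied within each genotype. The part of these cell types in the differences of the listed genes was not tested.

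**Figure D4:**
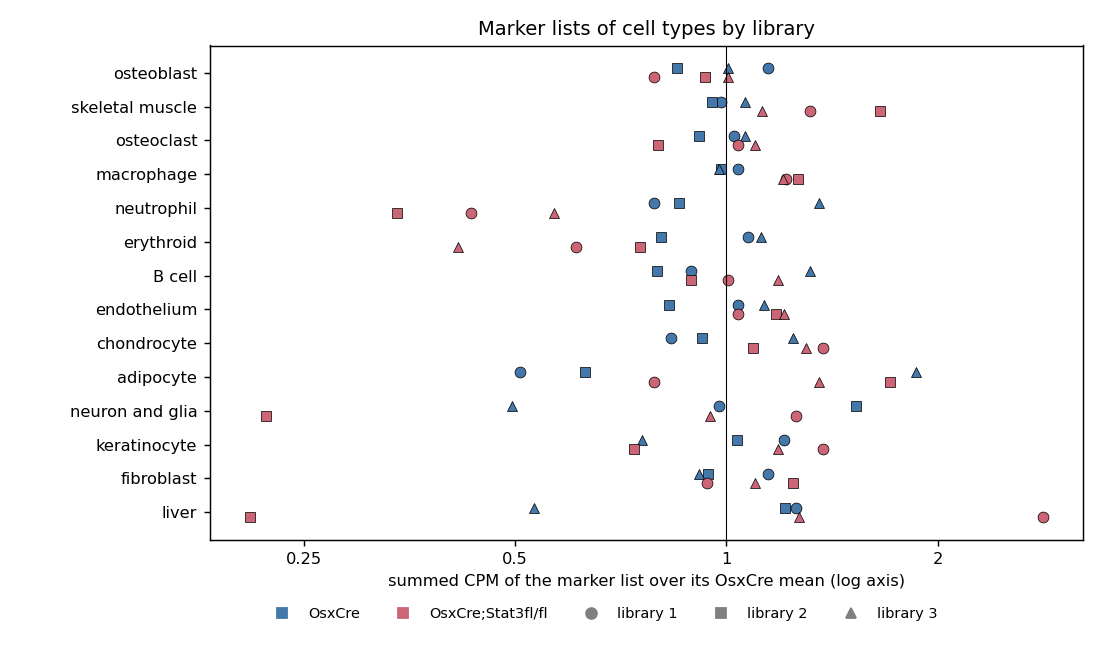
Summed CPM of each of 14 cell type marker lists in every library, divided by the mean of the OsxCre libraries, on a log axis, with OsxCre in blue and OsxCre;Stat3fl/fl in red. The genotypes do not overlap for skeletal muscle, macrophage, neutrophil and erythroid lists. The lists of adipocyte, of neuron and glia and of liver spread widely within each genotype.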

How the data were processed

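Total RNA of calvarial tissue was taken with TRIzol and made into libraries with the Illumina TruSeq kit. The authors deposited whole-number counts per gene for each library, with no normalization. The submitters' processing notes name HISAT2 and GRCm38, whereas the study's methods describe TopHat, mm9 and FPKM values, which these files do not hold. The counter, its annotation and its use of strand are not given in the sources used here, so overlapping and antisense genes could not be told apart.

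The analysis ran in R 4.3.3 and used edgeR 4.0.16. Of 44556 genes, 15600 passed filterByExpr at a count of 10 and a total of 15. Libraries were scaled by TMM (factors between 0.932 and 1.04), and genotypes were compared by a two-sided quasi-likelihood test over all 6 libraries without covariates, with Benjamini-Hochberg adjustment and a threshold of 0.05. CPM values used the TMM-scaled library sizes. Likeness used log2(CPM + 0.5). Pairs of libraries of a genotype differed by a chi-square of 7.51 to 15.6 per degree of freedom, so no library was a copy of another. The floor of 3 counts covers counting error only, while SDs and SEs are between libraries. DESeq2 1.42.0, limma 3.58.1, other scalings and filters, a replicate block and the omission of each library were tried as alternatives.

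The genes and the 20 lists were chosen with earlier results of these data known. Named genes were the 10 listed, 9 fixed genes of metal and steroid handling, Stat3, up to 4 called genes per list by smallest p or else the 2 with the largest log2 fold change, and the 5 most like each metallothionein. The start-site sequences came from RefSeq on GRCm38.p6, exon lengths from GENCODE on NCBIM37, and copies of Mt1 and Mt2 were sought with BLAST in NCBIM37.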

Additional observations from a re-analysis of the deposited data

How the results depend on the processing

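With 3 libraries per genotype the calls were few and moved with the setting, while the signs of the listed genes did not, except for Cdkn1a. The reported fit called 121 genes higher and 75 lower, 2 of the listed genes besides the metallothioneins, and 11 genes of the lists higher and 2 lower. Leaving out 1 library gave 7 to 67 genes higher, 5 to 36 lower, 0 to 3 of the listed genes, and 1 to 11 list genes higher and 0 to 2 lower, with the lowest counts of genes higher (7) and lower (5) without OsxCre;Stat3fl/fl library 3. With DESeq2 the counts were 307, 231, 4, 24 and 4, and with no filter 250 genes were higher and 178 lower, with 5 listed genes and 20 list genes higher. Library totals gave 114 genes lower and 1 list gene lower. Without scaling, which moved the median of all genes to -0.38, 5451 genes and 68 list genes were lower. That setting also turned the sign of Cdkn1a (-0.04), Mt3 (-0.20), Mtf1 (-0.37), Slc30a1 (-0.36), Hsd11b2 (-0.37), Nudt21 (-0.19), Gclc (-0.19), Slc30a10 (-0.14), Slc39a6 (-0.16), Steap4 (-0.07), Cdkn3 (-0.04), Ercc1 (-0.09), Abcg1 (-0.10) and Stat3 (-0.26), where unequal library totals enter the fold by construction. Library totals turned Mtf1 (-0.04), Slc30a1 (-0.02) and Hsd11b2 (-0.03), limma-voom turned Slc30a1 (-0.01), and over the omissions of 1 library Mt3 ranged from -0.08 to 0.32, Mtf1 from -0.08 to 0.07, Slc30a1 from -0.25 to 0.19 and Hsd11b2 from -0.06 to 0.17. The cause was not tested.

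Libraries with the same replicate number did not deviate together (r = -0.103, -0.524 and -0.0774). With 3 libraries per genotype this cannot decide whether the numbers pair the libraries, for example by litter. With a replicate block in edgeR, 0 genes were called higher and 1 lower (1002 and 1068 at an unadjusted p under 0.05), and 0 listed genes and 0 list genes were called in either direction, with an adjusted p of 0.164 for Fkbp5 and 0.0979 for Tsc22d3 by edgeR.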
